A study of Mus musculus with 6 samples.

Results

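Kinesins are motor proteins that walk along microtubules. The gene symbols that begin with Kif or Kifc, together with the kinesin subunit Kifap3 and the kinesin-binding protein Kifbp, picked out 46 of the 60193 genes listed for metaphase II (MII) oocytes of mice of advanced reproductive age. Of these, 15 were grouped as spindle kinesins, 17 as transport kinesins and 14 as cilium and other kinesins. The last group includes Kif16bos, a non-coding RNA antisense to Kif16b that the symbol rule also picks up. A further 3 rows named as pseudogenes (Kif4-ps, Kif22-ps and Kifc5c-ps) were left out, and none exceeded 0.38 FPKM. The RNA-seq samples were 3 pools of MII oocytes matured in vitro (IVM) and 3 pools matured in vivo (IVO). The donors of both groups were ICR females aged 42 to 45 weeks that had received pregnant mare's serum gonadotropin (PMSG). IVM oocytes were stripped of cumulus cells at the germinal vesicle stage and kept in M16 medium for 12 h, while IVO oocytes were taken from the oviduct 14 h after human chorionic gonadotropin (hCG). Each pool held 20 oocytes of 3 mice, so a sample averages over several animals and single oocytes were not measured. The comparison addressed whether motors of the meiotic spindle and motors that carry cargo differ between the routes of maturation.

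A kinesin holds a motor domain that binds microtubules and burns ATP, and a tail that binds cargo or other microtubules. In the oocyte, which builds its meiotic spindles without centrioles, spindle kinesins push the poles apart, bundle microtubules, trim their ends, hold the chromosomes at the equator and assemble the midzone at which the polar body is cut off. Transport kinesins move vesicles, endosomes and mitochondria, mostly towards the plus ends of microtubules, and the kinesin-2 motor also carries proteins along cilia. MII oocytes transcribe little, so their mRNA pool is largely the one stored during growth.

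The ATP-binding loop (P-loop) of the motor domain is the feature that the family shares by sequence. It was looked for in the coding sequence of each gene's canonical GENCODE M39 transcript (GRCm39), as codons for glycine, any residue, threonine, any 2 residues, glycine, lysine and threonine or serine. It was found in 40 of the 46 members. Kifap3 and Kifbp, which are not motors, had no match. Kif19b, Kif26a and Kif26b had none of this exact form either, and Kif16bos has no coding sequence. The loop lay in the first 30% of the coding sequence in 33 members, at 44.3% to 50.1% in Kif2a, Kif2b and Kif2c, whose motor domain is central, and at 60.9% to 68.1% in Kifc1, Kifc2, Kifc3 and Kifc5b, whose motor domain is at the C-terminal end. The 24 coding bases are shown for the members on which the results turn and for some of their relatives. The 9 capitals mark the codons for glycine, lysine and threonine or serine that close the loop.
Kif2c: ggacagacaggcagtGGGAAGACA
Kif2a: gggcagactggaagtGGGAAAACT
Kif3b: ggacaaacaggaactGGGAAAACC
Kif13a: ggccagacaggttctGGAAAGTCC
Kif13b: gggcagacagggtctGGAAAGTCT
Kif18a: ggtgccactggatctGGGAAAACT
Kif4: gggcagactggatctGGAAAAACG
Kif1b: gggcagactggtgctGGGAAATCC
Kifc1: ggacagacaggcagtGGCAAGACC
Kifc5b: ggacagacaggcagtGGCAAGACC
These bases lie at chr4:117024494-117024517 in exon 11 of Kif2c (minus strand), at chr13:107115988-107116011 in exon 10 of Kif2a (minus strand) and at chr2:153158486-153158509 in exon 2 of Kif3b (plus strand). They lie at chr2:109120035-109120058 in exon 3 of Kif18a (plus strand), at chrX:99677471-99677494 in exon 3 of Kif4 (plus strand) and at chr4:149359424-149359447 in exon 4 of Kif1b (minus strand). In Kif13a on chromosome 13 and Kif13b on chromosome 14 an intron splits them over 2 exons. The bases of Kifc1 (chr17:34102358-34102381, minus strand) and Kifc5b (chr17:27143454-27143477, plus strand), a pair of close paralogs on the same chromosome, are identical. The canonical transcript of Kifc1 shared 536 of its 2392 windows of 100 bases (22.4%) with that of Kifc5b, so fragments may have been split between them.

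FPKM, the deposited unit, relates the fragments of a gene to its length and to the total of the library. The depth inferred from the steps between low values was 16500000 to 19300000 fragments in the IVM samples and 17700000 to 18300000 in the IVO samples. The mean fragment length inferred the same way was 208.3 ± 6.7 bases in IVM and 251.0 ± 19.1 bases in IVO (SD, n = 3), and its part in the results was not tested. All 10 oocyte markers were at 17.5 FPKM or more in every sample, and they summed to 5504 to 7301 FPKM in IVM and to 3846 to 4130 FPKM in IVO. Of the 10, 4 were called lower and 0 higher (median log2FC -0.92), and the part of this difference in the results was not tested. Of the 12 cumulus and granulosa markers, Fshr and Cyp19a1 were above 1 FPKM, and Amh was listed at 0 in every sample. The 12 summed to 24.0 to 33.6 FPKM in IVM and 30.3 to 35.6 in IVO, nearly all of it Fshr and Cyp19a1. At low levels, Has2 was at 0.04 to 0.14 FPKM in IVM and 0.17 to 0.37 in IVO. Ptx3 was at 0 to 0.03 and 0.07 to 0.17, and Tnfaip6 at 0 to 0.14 and 0.34 to 0.49. Inha leaned the other way with overlap, at 0.16 to 0.86 in IVM and 0.09 to 0.41 in IVO. The 5 oviduct markers summed to 2.93 to 3.16 FPKM in IVM and 3.26 to 5.71 in IVO, nearly all of it Epcam, with Pax8 listed at 0. The 5 blood markers summed to 0 to 1.04 FPKM in IVM and 0.01 to 5.82 in IVO, and the part of these cells in the results was not tested. In pools of this kind, fewer oocytes and less RNA per oocyte cannot be told apart.

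Spindle kinesins made up most of the kinesin mRNA once a single transport motor, Kif1b, was set aside. Kif1b, a motor of mitochondria and vesicle precursors, was by far the most abundant member and took 37.2% to 63.5% of the summed kinesin FPKM of a sample. Its level was 2604, 1161 and 1078 FPKM in the IVM samples and 1183, 910 and 855 FPKM in the IVO samples. It stood above every other member in all 6 samples. The 46 members together held 0.122% to 0.196% of the summed FPKM of a library. Of the FPKM that remains without Kif1b, spindle kinesins held 71.3% to 77.2% in IVM and 79.8% to 81.1% in IVO. These groups did not overlap, but the gap depended on the non-motor Kifbp, which was counted with the transport list. Kifbp was at 66.5, 81.6 and 52.0 FPKM in IVM and at 3.14, 35.4 and 15.8 in IVO. With Kifbp set aside as well, the spindle share overlapped between the groups. With Kif1b kept in, the spindle share overlapped between the groups. The spindle sums also overlapped, at 1007.2 to 1157.3 FPKM in IVM and 1084.5 to 1243.6 in IVO. The transport sum without Kif1b, which includes the non-motor Kifbp, was 328 to 413 FPKM in IVM and 244 to 271 in IVO.

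The 4 most abundant spindle kinesins held 87.3% to 91.3% of the summed spindle FPKM of each sample. They were Kif4, a chromokinesin that also works at the midzone, Kif23, the motor of the centralspindlin complex, Kif20b, a motor of late cytokinesis, and Kif18a, a plus-end motor that dampens chromosome movements. Kif4 stood at 468, 369 and 433 FPKM in IVM and at 309, 469 and 389 in IVO. Kif23 stood at 285, 266 and 333 FPKM in IVM and at 327, 319 and 311 in IVO, and it lay under Kif4 in 5 of the 6 samples. Kif20b and Kif18a followed in that order in every sample. Kif20a, which brings the chromosomal passenger complex to the midzone, was at 24.6, 21.7 and 29.8 FPKM in IVM and at 24.3, 24.4 and 27.1 in IVO. Of its annotated exonic bases 61.5% overlap Cdc23 or Brd8, and the library kit does not keep strand, so its level is uncertain. Kif11, the bipolar motor that pushes spindle poles apart, was lower than these, at 10.6 to 14.4 FPKM over the 6 samples. Kif15, which can share that task, was at 1.49 to 3.01 FPKM.

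Among transport motors, the next levels after Kif1b were those of Kif3a and Kifc2, which could not be ordered, since each was above the other in 3 of the 6 samples. Kifc2, a minus-end motor, was at 49.1, 95.5 and 96.8 FPKM in IVM and at 34.9, 37.6 and 81.9 in IVO. Kif5b, the ubiquitous heavy chain of kinesin-1, was at 12.6 to 25.1 FPKM over the 6 samples, and its relative Kif5c was at 9.90 to 14.9. Further down the order, neighbouring members often changed places between samples, as Kif3b with Kif13a and Kif11 with Kifc3 did.

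**Figure D1:**
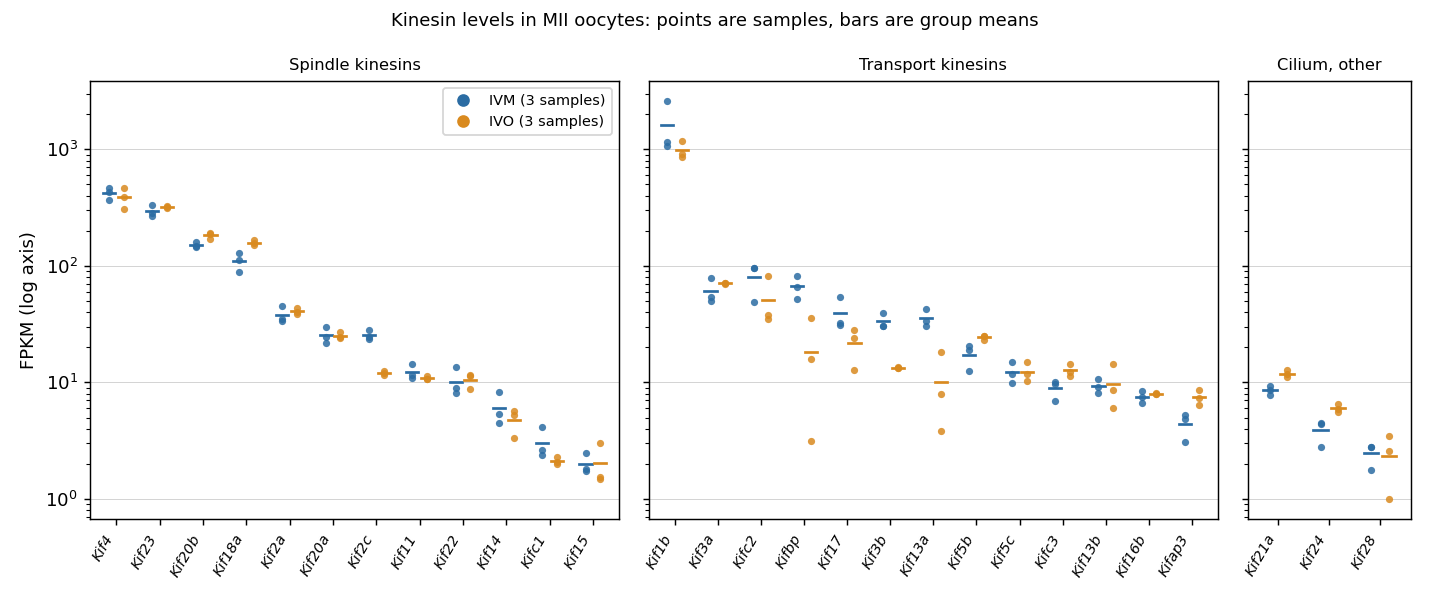
FPKM (log axis) of the 28 kinesins with a mean of at least 1 FPKM, by group of kinesins and in order of their mean, with 3 IVM samples (blue) and 3 IVO samples (orange) as points and group means as bars. Kif1b stands above all others, Kif4, Kif23, Kif20b and Kif18a stand above the other spindle kinesins, and the IVO points of Kif2c and Kif3b lie in a narrow band below the IVM points.

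Few kinesins passed the test between the routes of maturation. Over the 28 kinesins with a mean of at least 1 FPKM, 3 were lower in IVO than in IVM and 0 were higher. They were Kif2c, a microtubule depolymerase of centromeres, Kif3b, a motor subunit of kinesin-2, and Kif13a, a motor of recycling endosomes. A gene was called when limma, run on log2(FPKM + 1) of all 18818 genes with such a mean, gave |log2FC| ≥ 1 at an adjusted p-value below 0.05. The log2FC is IVO minus IVM and understates the change of low genes. The 3 lower members were 10.7% of the kinesins tested, against 17.9% of all genes tested that were lower and 0.606% that were higher. At an adjusted p-value under 0.05 with no threshold on the fold, the count was also 3 lower and 0 higher, against 21.5% and 1.87% of all genes. At an unadjusted p-value under 0.05 limma gave 5 lower and 2 higher kinesins, against 31.4% and 5.56% of all genes.

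All 3 IVO samples lay below all 3 IVM samples for 6 kinesins, or 21.4% of those tested, against 32.6% of all genes. They lay above for 7 kinesins, or 25.0%, against 9.62% of all genes. The 6 were Kif2c, Kifc1, Kif3b, Kif13a, Kif17 and Kifbp, and the 7 were Kif18a, Kif20b, Kif5b, Kifc3, Kifap3, Kif21a and Kif24. The median log2FC of the tested kinesins was 0.00, with 13 below and 13 above 0 after rounding, beside a median of -0.30 over all genes tested and of -0.185 over the 13154 tested genes with Ensembl identifiers. Of these Ensembl genes, which include every kinesin tested, 14.6% were lower and 0.623% higher, so the 3 lower kinesins were near this share. All IVO samples lay below all IVM samples for 29% of the Ensembl genes and above for 11.8%. The median listed length was 4234.5 bases for the tested kinesins and 1536.5 bases for all genes tested.

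Set side by side, spindle and transport kinesins gave like medians and few calls. Of the 12 spindle kinesins tested, 1 was lower (8.33%, against 17.9% of all genes) and 0 higher, and their median log2FC was -0.01. Of the 13 transport kinesins tested, 2 were lower (15.4%) and 0 higher, and their median was 0.00. Without a fold or adjustment, at an unadjusted p-value under 0.05, limma gave 1 lower and 1 higher spindle kinesin and 4 lower and 1 higher transport kinesin, beside 31.4% of all genes lower and 5.56% higher. The counts of transport kinesins lay near these shares. The extremes differed more than the medians did, with log2FC from -1.01 to 0.54 among spindle kinesins and from -2.29 to 0.67 among transport kinesins.

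**Figure D2:**
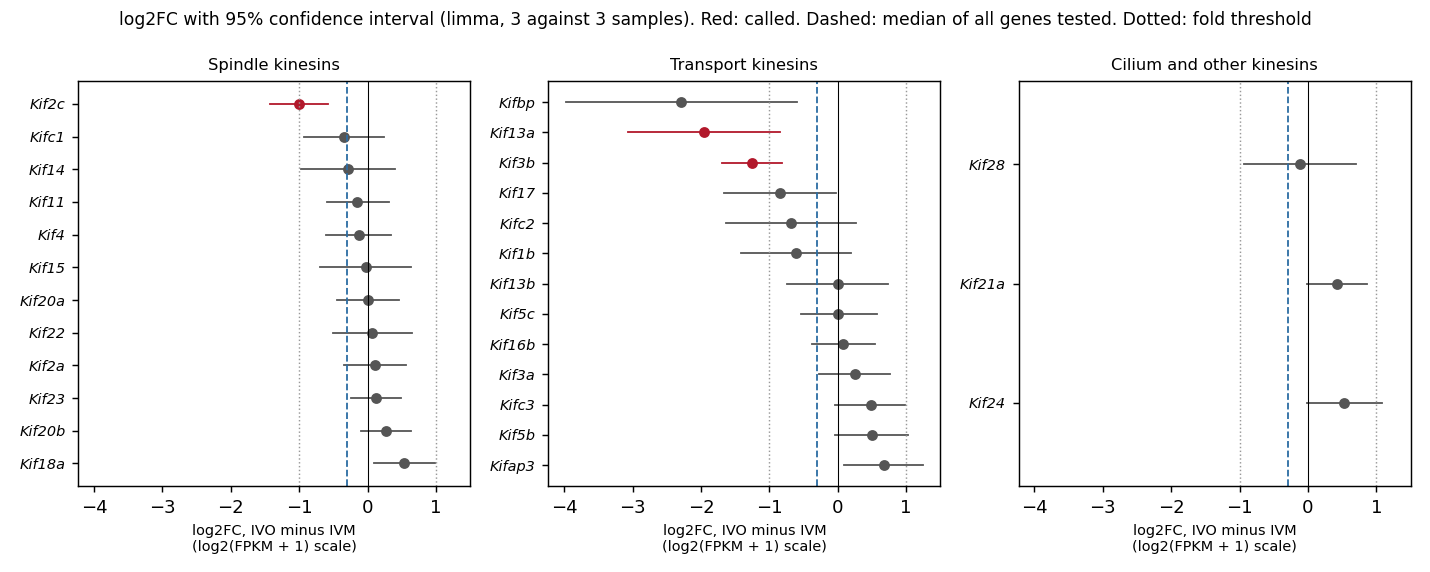
log2FC (IVO minus IVM, log2(FPKM + 1) scale) of each tested kinesin with its 95% confidence interval from limma, 3 against 3 samples; called genes are red, the dashed line is the median of all genes tested (-0.30) and dotted lines mark the fold threshold of 1. Kif2c, Kif3b and Kif13a are called, and Kifbp has the most negative value with a wide interval.

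Kif2c, also known as MCAK, removes tubulin from microtubule ends at centromeres and helps release wrongly attached chromosomes. Its level was 23.6, 24.6 and 28.0 FPKM in IVM and 12.6, 12.1 and 11.7 FPKM in IVO. The groups did not overlap, and the IVO samples were nearly the same. The log2FC was -1.01 ± 0.18 (SE), with a 95% confidence interval from -1.43 to -0.58 and an adjusted p-value of 0.00906. It passed the fold threshold narrowly, and the call was lost without IVM replicate 3 (log2FC -0.94) or without IVO replicate 3 (-0.98). Its relative Kif2a, which trims microtubules at the spindle poles, was at 34.7, 33.9 and 45.3 FPKM in IVM and at 40.3, 38.8 and 43.1 in IVO, and the groups overlapped. The log2FC of Kif2a was 0.11 (95% confidence interval -0.34 to 0.56). Of its annotated exonic bases 41.1% overlap Dimt1. The third depolymerase, Kif2b, was listed at 0 in every sample, where 3 fragments would give 0.0766 to 0.0891 FPKM, a limit of counting only.

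Kif18a lay on the other side, with all IVO samples above all IVM samples. Its level was 129, 113 and 88.4 FPKM in IVM and 167, 156 and 152 FPKM in IVO. The log2FC was 0.54 (95% confidence interval 0.09 to 0.99), and the adjusted p-value of 0.085 missed the threshold. Kif20b was at 161, 149 and 144 FPKM in IVM and at 171, 191 and 188 in IVO, again without overlap (log2FC 0.27, 95% confidence interval -0.09 to 0.63, adjusted p-value 0.246). The groups of Kif4 and of Kif23 overlapped, and the log2FC of Kif4 was -0.13 (95% confidence interval -0.61 to 0.34) and that of Kif23 was 0.12 (95% confidence interval -0.24 to 0.49). Pdzd11 overlaps 11.1% of the annotated exonic bases of Kif4. The log2FC of Kif20a was 0.00 (95% confidence interval -0.45 to 0.46).

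Kifc1, the minus-end motor that cross-links and focuses spindle microtubules, was at 4.14, 2.61 and 2.38 FPKM in IVM and at 2.01, 2.29 and 2.08 in IVO. The groups were apart by a small margin, and the log2FC was -0.35 (95% confidence interval -0.93 to 0.24, adjusted p-value 0.365). Its paralog Kifc5b was at 0.30, 0.21 and 0.53 FPKM in IVM and at 0.18, 0.08 and 0.21 in IVO, and it was too low to be tested. The remaining tested spindle kinesins, Kif11, Kif14, Kif15 and the chromokinesin Kif22, had log2FC from -0.28 to 0.07, and their groups overlapped. Kif18b, a motor of astral microtubules, was at 0.18 to 1.36 FPKM and was not tested.

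The subunits of kinesin-2 gave log2FC of either sign. This motor is a heterotrimer of Kif3a, Kif3b or its relative Kif3c, and the non-motor subunit Kifap3, which links the motors to cargo. Kif3b was at 39.1, 30.6 and 30.7 FPKM in IVM and at 13.6, 13.2 and 13.4 FPKM in IVO. The log2FC of Kif3b was -1.25 ± 0.19 (SE), with a 95% confidence interval from -1.69 to -0.81 and an adjusted p-value of 0.0052, and it was called in all 6 fits that left out a sample. Kif3a was at 49.8, 53.7 and 79.4 FPKM in IVM and at 71.7, 70.2 and 71.3 in IVO. Its groups overlapped, with a log2FC of 0.25 (95% confidence interval -0.27 to 0.76). Kifap3 was at 3.10, 4.84 and 5.30 FPKM in IVM and at 8.60, 6.45 and 7.42 in IVO. All its IVO samples lay above all IVM samples, with a log2FC of 0.67 (95% confidence interval 0.09 to 1.24) and an adjusted p-value of 0.0947. Kif3c was at 0.11 FPKM or less in every sample.

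Ratios of 2 members within a sample do not depend on the scaling factor of its library. For 7 such ratios, chosen after the values were seen, an exact permutation test of 3 against 3 samples (two-sided) cannot give a p-value under 0.1. Because of that choice, its p-values only describe these pairs. How often other pairs of genes were apart was not counted. The ratio of Kif3b to Kif3a was 0.784, 0.570 and 0.386 in IVM and 0.190, 0.188 and 0.188 in IVO (exact p-value 0.1, adjusted 0.117). The ratio of Kif2c to Kif2a was 0.679, 0.728 and 0.618 in IVM and 0.312, 0.312 and 0.270 in IVO (exact p-value 0.1, adjusted 0.117). Both ratios were lower in every IVO sample than in any IVM sample. Kif3b to Kifap3, Kif3a to Kifap3, Kif13a to Kif13b and Kif18a to Kif4 were likewise apart (exact p-value 0.1, adjusted 0.117 each), the first 3 lower in IVO and the last one higher. Kif3b to Kifap3 went from 5.79 to 12.6 over the IVM samples to 1.58 to 2.05 over the IVO samples. The ratio of Kif4 to Kif23, the main spindle kinesins, overlapped between the groups, at 1.44 ± 0.179 in IVM and 1.22 ± 0.264 in IVO (SD, n = 3, exact p-value 0.4).

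**Figure D3:**
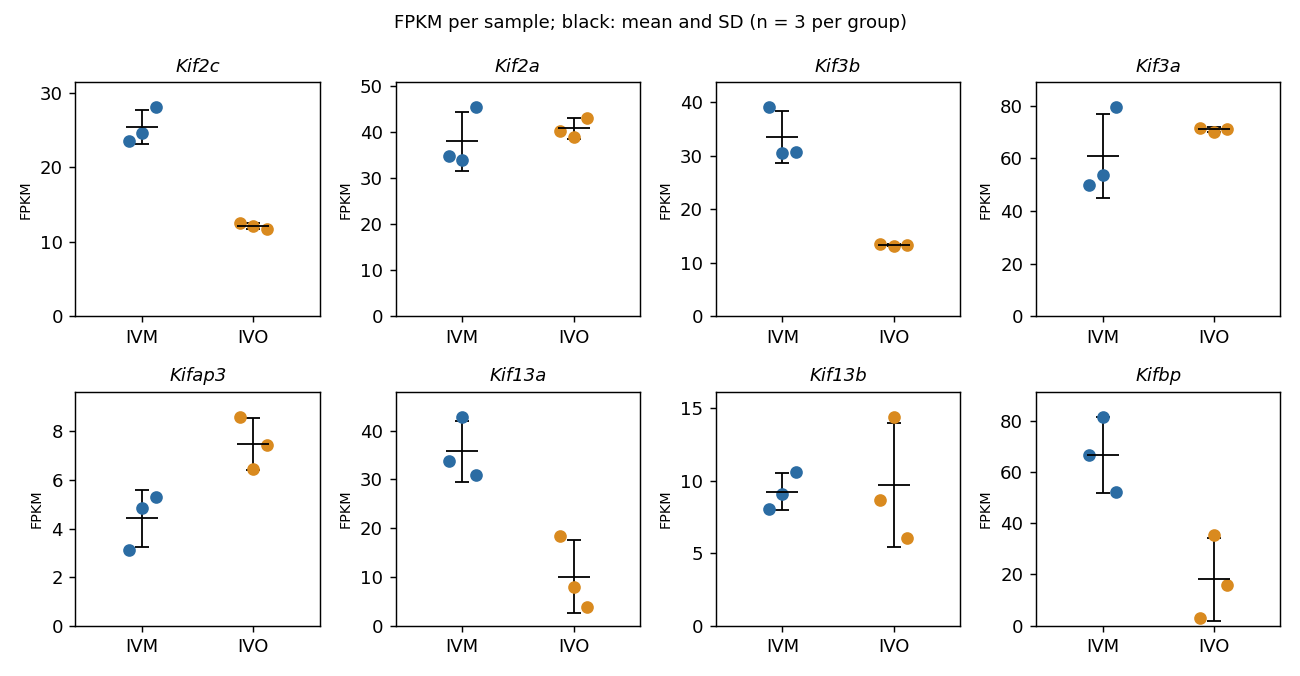
FPKM of 8 kinesin genes in each of the 3 IVM (blue) and 3 IVO (orange) samples, with the mean and SD of each group in black; each axis starts at 0. Kif2c and Kif3b are lower in every IVO sample while Kif2a and Kif3a overlap, Kifap3 is higher in every IVO sample, and the IVO samples of Kif13a and Kifbp are spread out.

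Kif13a was at 33.7, 42.8 and 30.8 FPKM in IVM and at 18.3, 7.93 and 3.82 FPKM in IVO. The groups did not overlap, but the IVO samples spread from 3.82 to 18.3 FPKM. The log2FC was -1.95 ± 0.48 (SE), with a 95% confidence interval from -3.07 to -0.84 and an adjusted p-value of 0.0257. The call held in 2 of the 6 fits that left out a sample, those without IVO replicate 1 (adjusted p-value 0.00853) and without IVO replicate 3 (0.0398). In the others the adjusted p-value was 0.0681 to 0.0945. Its close relative Kif13b was at 8.06, 9.06 and 10.6 FPKM in IVM and at 8.66, 14.4 and 6.04 in IVO, and its log2FC was 0.00 (95% confidence interval -0.74 to 0.73).

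Kifbp, which is no motor but binds several kinesins and holds them off microtubules, had the most negative log2FC of the family. It was at 66.5, 81.6 and 52.0 FPKM in IVM and at 3.14, 35.4 and 15.8 FPKM in IVO. All IVO samples were lower, yet they differed widely among themselves. The log2FC was -2.29 ± 0.72 (SE), with a 95% confidence interval from -3.97 to -0.60, and the adjusted p-value of 0.0581 missed the threshold. Without IVO replicate 2, the highest IVO sample, the adjusted p-value was 0.0213, and in the other 5 fits that left out a sample it was 0.0521 to 0.168. Without IVO replicate 1, the lowest one, the log2FC was -1.43.

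Kif17, a dendritic and ciliary motor that works as a homodimer, was at 31.1, 32.2 and 54.2 FPKM in IVM and at 24.3, 28.1 and 12.9 in IVO. The groups did not overlap, and the log2FC was -0.84 (95% confidence interval -1.66 to -0.02, adjusted p-value 0.128). The log2FC of Kif1b was -0.61 (95% confidence interval -1.42 to 0.20, adjusted p-value 0.249), with IVM replicate 1 at more than the level of any other sample and the groups overlapping. The log2FC of Kifc2 was -0.68 (95% confidence interval -1.63 to 0.27, adjusted p-value 0.271), also with overlap, and 25.1% of its annotated exonic bases are shared with other genes. Kif5b and Kifc3 lay higher in every IVO sample, with log2FC of 0.50 (95% confidence interval -0.04 to 1.03) and 0.48 (95% confidence interval -0.04 to 0.99). Kif5c and Kif16b, an early endosome motor, had log2FC of 0.01 and 0.08. The neuronal motors Kif1a and Kif5a did not exceed 0.07 FPKM in any sample, and Kif1c was at 0.05 to 0.24 FPKM.

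Of the 14 cilium and other kinesins, 3 were high enough to be tested. Kif21a, which restrains microtubule growth at the cell cortex, was at 8.67, 9.33 and 7.82 FPKM in IVM and at 11.7, 11.2 and 12.7 in IVO. Kif24, a depolymerase of centrioles, was at 2.79, 4.43 and 4.51 FPKM in IVM and at 5.53, 5.97 and 6.55 in IVO. Both lay above IVM in every IVO sample, with log2FC of 0.42 and 0.53 and an adjusted p-value of 0.146 each. Kif28 was at 0.99 to 3.44 FPKM, and its groups overlapped. None of the 3 was called by limma, and none had an unadjusted p-value under 0.05. The other 11, among them Kif7 of the Hedgehog pathway, Kif6, Kif9, Kif19a and Kif27 of motile cilia and the antisense RNA Kif16bos, did not exceed 0.65 FPKM in any sample, and Kif12 was listed at 0 throughout. In all, 17 members stayed under 1 FPKM in every sample and 27 reached it in every sample.

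The deposited FPKM were summed to different totals, 1826738 to 2111776 in IVM and 1560813 to 1643682 in IVO, and the number of called kinesins depended on how this was treated. Median-ratio scaling moved the median log2FC of all genes from -0.30 to -0.04 and left 1 lower kinesin (Kif13a) and 0 higher. Scaling to the same sum gave a median of -0.03 over all genes and 0 called kinesins. Quantile normalization moved the median to 0.17 and gave 0 lower and 3 higher kinesins, namely Kif18a, Kifap3 and Kif24. Once the trend of log2 values with gene length had been taken out of each library, the median was 0.05 and 2 kinesins were lower (Kif3b and Kif13a). Of all 18818 genes, 3366 were lower and 114 higher with the FPKM as deposited. These counts were 2130 and 385 with median-ratio scaling, and 2131 and 397 with the same sum. They were 1580 and 1097 with quantile normalization, and 1511 and 557 with the length trend removed. The direction of the named calls did not turn. The log2FC of Kif2c was -0.70 after median-ratio scaling and -0.51 after quantile normalization, that of Kif3b was -0.94 and -0.75, and that of Kif13a was -1.65 and -1.45. Kif4, Kif13b, Kif15 and others near 0 took a positive log2FC under these scalings.

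**Figure D4:**
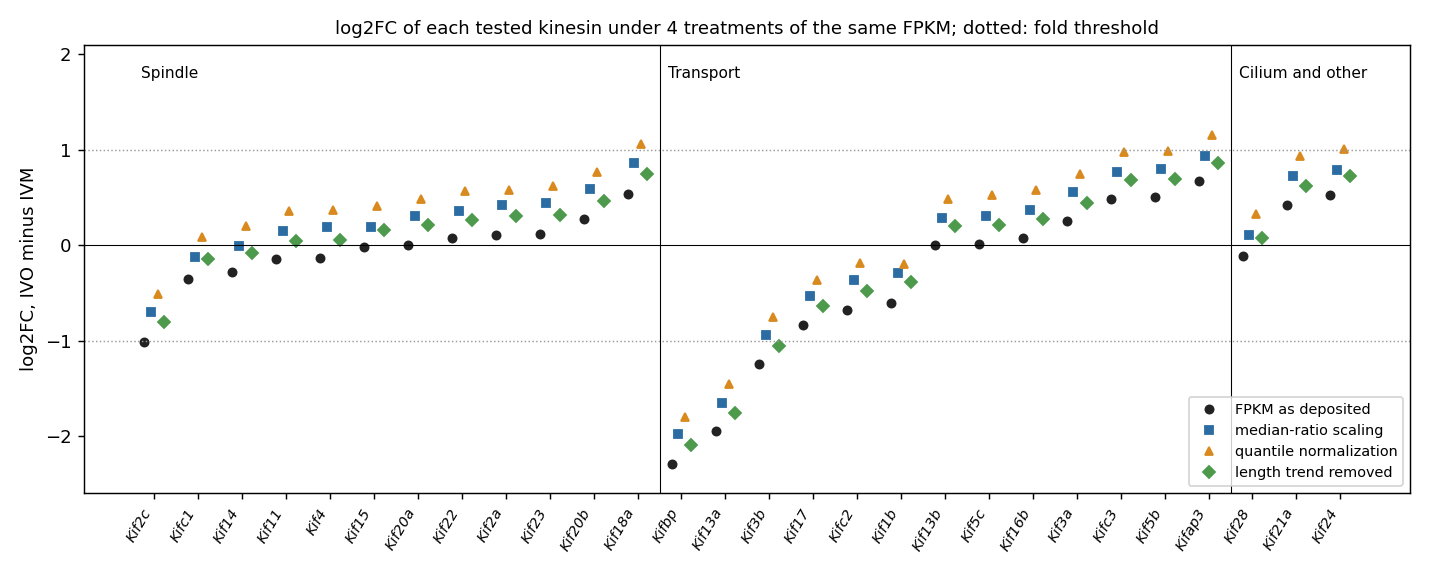
log2FC (IVO minus IVM) of the 28 tested kinesins from FPKM as deposited (black), after median-ratio scaling (blue), quantile normalization (orange) and removal of the length trend (green), with dotted lines at the fold threshold of 1. All 28 kinesins shift upwards from the deposited values under the other treatments, as does the median of all genes tested (not drawn). Kif2c passes the threshold with the deposited FPKM and in none of the other treatments shown.

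Kinesins work with adaptors, with spindle proteins and against the minus-end motor dynein. Among the 15 light chains and cargo adaptors, 6 were tested and 1 was lower (16.7%, near the 17.9% of all genes). Of the 6, 1 was higher, against 0.606% of all genes, and the median log2FC of the 6 was -0.40. Klc1, the light chain that couples kinesin-1 to cargo, was at 16.8, 12.1 and 13.9 FPKM in IVM and at 5.71, 5.40 and 6.46 in IVO (log2FC -1.15, adjusted p-value 0.00934). Arl8b, the small GTPase that recruits kinesins to lysosomes, was at 32.4, 25.3 and 30.8 FPKM in IVM and at 71.5, 65.3 and 57.3 in IVO (log2FC 1.11, adjusted p-value 0.00801). The groups of both genes were apart. With no threshold on the fold, limma gave 2 lower and 1 higher, against 21.5% and 1.87% of all genes. The added gene was the adaptor Trak1 (log2FC -0.84, adjusted p-value 0.019). The other light chains, Klc2, Klc3 and Klc4, did not exceed 0.75 FPKM in any sample. Of the Arl8b transcript 17.4% of 100-base windows are shared with other genes. With median-ratio scaling, quantile normalization, the same sum or the length trend removed, Arl8b was called and Klc1 was not.

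None of the 15 spindle partners was called by limma, against 17.9% of all genes called lower and 0.606% called higher. The median log2FC of the partners was -0.13. At an unadjusted p-value under 0.05 limma gave 2 lower and 0 higher partners, against 31.4% and 5.56% of all genes. With no threshold on the fold, Cit, the midbody kinase citron that works with Kif14, was lower (log2FC -0.79, adjusted p-value 0.0335). Cenpe, the kinesin-7 motor of kinetochores whose symbol falls outside the rule, was at 127, 156 and 158 FPKM in IVM and at 184, 177 and 188 in IVO. Its groups did not overlap, with a log2FC of 0.32 (95% confidence interval -0.07 to 0.71) and an adjusted p-value of 0.207. Its level was of the order of those of Kif18a and Kif20b.

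Of the 25 dynein and dynactin genes, 19 were tested and 4 were lower in IVO (21.1%, near the 17.9% of all genes). Of the 19, 1 was higher in IVO, against 0.606% of all genes, and their median log2FC was -0.29. The lower genes were 3 light chains, which sit on the intermediate chains of the motor, and the cargo adaptor Bicd1. Dynlt1b was at 640, 461 and 439 FPKM in IVM and at 80.7, 49.3 and 85.7 in IVO (log2FC -2.84, adjusted p-value 0.00133). Its listed length is 771 bases, and 77.4% of its 100-base windows are shared with other genes, mainly the copies Dynlt1a, Dynlt1c and Dynlt1f, so its level is uncertain. Dynll1 was at 215, 198 and 183 FPKM in IVM and at 77.9, 53.6 and 82.1 in IVO (log2FC -1.49, adjusted p-value 0.00439, with the call lost after quantile normalization at -0.97), and 68.3% of its windows are shared with Coq5. Dynlrb2, with a listed length of 515 bases, was at 3.85, 4.47 and 2.72 FPKM in IVM and was listed at 0 in all IVO samples (adjusted p-value 0.00236). Bicd1 was at 478, 603 and 546 FPKM in IVM and at 262, 185 and 254 in IVO (log2FC -1.22, adjusted p-value 0.0063), and the call was lost with median-ratio (log2FC -0.90), quantile (-0.70) and same-sum scaling (-0.88) and with no filter (adjusted p-value 0.0544). The higher gene, the dynactin subunit Dctn6, was at 8.84, 7.16 and 6.77 FPKM in IVM and at 20.9, 17.3 and 13.7 in IVO (log2FC 1.08, adjusted p-value 0.0161). The call of Dctn6 held in 2 of the 6 fits that left out a sample, without IVM replicate 1 or IVO replicate 3, and the adjusted p-value was 0.0504 to 0.0563 in the others and 0.0772 with no filter. In all 5 called genes the groups were apart. Of all genes tested, 32.6% had every IVO sample below every IVM sample and 9.62% had every IVO sample above. With no threshold on the fold, limma gave 6 lower and 2 higher dynein and dynactin genes, against 21.5% and 1.87% of all genes. The added ones were the heavy chain Dync1h1 (log2FC -0.96, adjusted p-value 0.0131), Dynlrb1 (-0.79, 0.0169) and, higher in IVO, Dynlt3 (0.68, 0.0294).

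**Figure D5:**
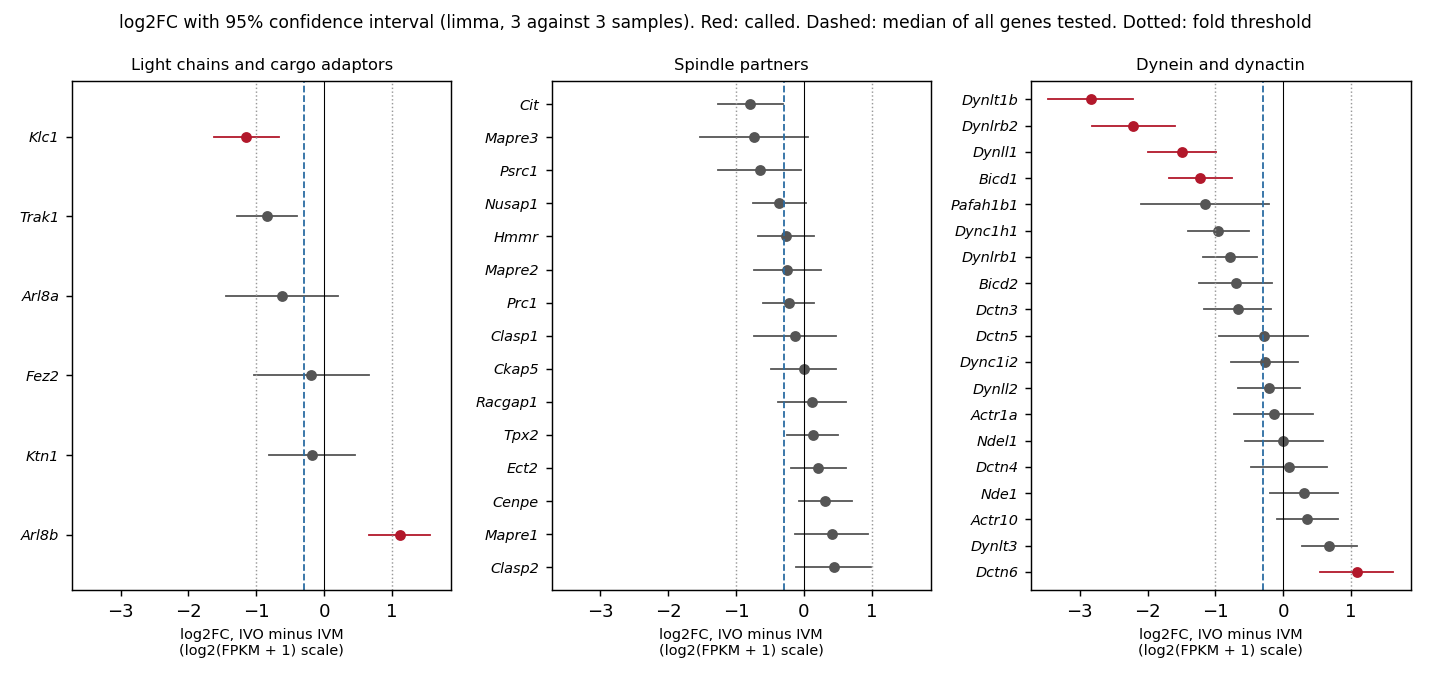
log2FC (IVO minus IVM, log2(FPKM + 1) scale) with 95% confidence intervals from limma for the tested light chains and cargo adaptors, spindle partners, and dynein and dynactin genes, 3 against 3 samples; called genes are red and the dashed line is the median of all genes tested. Arl8b and Dctn6 are higher, Klc1 and 4 dynein genes are lower, and no spindle partner is called.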

How the data were processed

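Each of the 6 samples was a pool of MII oocytes, grouped as IVM or IVO by its labels. The authors amplified full-length cDNA (SMART-Seq v4), made Nextera XT libraries, aligned the reads to GRCm39 with HISAT2 2.1.0 and deposited FPKM per gene from RSEM 1.3.3. They tested counts with DESeq2 1.24.0, but the values used here are FPKM, so no count test was run. The release of their annotation is not given in the sources used here. The deposited group means and KEGG columns were not used.

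IVO was compared with IVM by limma 3.58.1 in R 4.3.3 with lmFit and a trended eBayes. The model held the group alone and was fitted to log2(FPKM + 1) of the 18818 genes whose FPKM averaged 1 or more over the samples. P-values were two-sided and adjusted by the Benjamini-Hochberg method over these genes. Low FPKM values of genes with 1 transcript move in steps, each worth 1 fragment, which gave the depth, and 73.0% to 76.7% of values came out whole within 0.15 fragments. Floors cover counting error only. The P-loop bases of a relative are not reported here. Overlaps and coding sequences came from GENCODE M39 on GRCm39, read with Biopython 1.88, and tables were made with Python 3.11.15, pandas 2.3.3, numpy 2.4.6 and scipy 1.17.1.

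Members and lists were chosen with earlier results of these data known. Values per sample are given for members called or with an adjusted p-value under 0.05, the 6 spindle and 6 transport members with the highest mean, Kifc1 and Kifc5b, and for called partners (at most 6 per list), Cenpe and Klc1 to Klc4. Further members named for groups that do not overlap, for a low level, or as relatives of a called member were chosen after their values were seen. Other settings tried were 0.1 as the pseudocount, all genes unfiltered, only genes that averaged 5 FPKM or more, median-ratio, quantile and same-sum scaling, an untrended eBayes, removal of the length trend (lowess, span 0.3), Ensembl genes only, no fold threshold, the replicate number as a block and leaving out each sample.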

Additional observations from a re-analysis of the deposited data

How the results depend on the processing

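The count of called kinesins (3) was 1 with median-ratio scaling, 0 with the same sum and 0 with the length trend removed in a fit with the replicate block, and 1 to 3 when single samples were left out. For spindle kinesins it was 0 with median-ratio scaling, the same sum, and the length trend removed with or without the block, and 0 to 1 without single samples. For transport kinesins it was 1 with no filter, after median-ratio scaling and after quantile normalization (where Kifap3 was higher), 0 with the same sum and with the length trend removed and the block, and 1 to 2 without single samples. For cilium and other kinesins it was 1 with quantile normalization. The light chains and adaptors had 1 call with median-ratio, quantile or same-sum scaling and with the length trend removed, with or without the block. The spindle partners had 1 with no threshold on the fold. Dynein and dynactin had 3 with no filter, 2 with the length trend removed and the block, and 8 with no threshold on the fold. The median log2FC with median-ratio scaling, quantile normalization, the same sum and the length trend removed (with or without the block) was 0.25, 0.44, 0.27 and 0.18 for spindle, 0.28, 0.48, 0.30 and 0.20 for transport and 0.72, 0.93, 0.73 and 0.62 for cilium and other kinesins. Without single samples the transport median was -0.30 to 0.09, lowest without IVO replicate 2. Under median-ratio scaling, quantile normalization and removal of the length trend, all 28 tested kinesins had a higher log2FC than with the FPKM as deposited. The median over all genes tested rose too, from -0.296 to -0.041, 0.173 and 0.051 in that order, and the cause was not tested. Of the 412 alternative values for single named genes, 37 lost a call, 4 gained one and 371 stayed on their side of the threshold, of which 10 had the other sign without being called.

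The labels number the replicates but do not say what a number marks, so the samples were treated as unpaired. Deviations from the group means of samples with the same number correlated at -0.062, -0.018 and -0.107. With only 3 samples per group, these values cannot show whether the samples were paired. With the number as a block, 4 kinesins were called, the added one being Kifbp (adjusted p-value 0.0479), and 2899 genes of all were lower and 92 higher. With a mean FPKM of at least 5, Kifbp was also called (0.0491). Each tested kinesin had an estimated 57.8 fragments or more in every sample. The members that were not tested fell under the filter on the mean FPKM. Most of them lay near the floor of 3 fragments in at least 1 sample, while Kif18b had an estimated 9.8 to 80.2 fragments. Whether these members differ between the groups was not tested.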
